A study of Mus musculus with 15 samples.

Results

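Gene expression at circadian time 16 (CT16), in the subjective night, was compared between mice lacking both REV-ERB receptors and control mice, in RNA sequenced from punches of the suprachiasmatic nuclei (SCN), the seat of the master circadian clock in the mammalian hypothalamus. The comparison took all 9 CT16 libraries of the 15 in the series, 4 from the double knockout (labelled REV-ERBS DKO, here DKO) and 5 from controls, over the 16910 of 24419 genes that passed a filter on low counts. Mice of both groups were C57BL/6, aged 8 to 12 weeks, and each library held RNA of 2 to 4 pooled punches. The alleles deleted, the driver of any Cre, the cells that lost the receptors and the genotype of the controls beyond "control" are not given in the labels, nor is any batch or date. The other 6 libraries, 3 DKO and 3 control at CT4 in the subjective day, entered the fit to share the estimate of spread and served only to test whether a difference at CT16 differed from that at CT4.

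REV-ERB alpha and REV-ERB beta, encoded by Nr1d1 and Nr1d2, are nuclear receptors that bind haem and repress transcription by recruiting the NCoR corepressor and HDAC3. They occupy the same DNA elements as the activating ROR receptors, and through them hold down Arntl (BMAL1) and other clock genes for part of each day. Outside the clock they are known as repressors of genes of lipid and glucose metabolism in liver and other tissues. Fabp7, a fatty acid binding protein made by astrocytes and neural stem cells, is a known target in brain.

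The counts of the targeted genes themselves were higher in DKO. Nr1d1 stood at 296, 360, 241 and 378 CPM (counts scaled to library size) in DKO libraries 1 to 4 and at 150, 144, 146, 144 and 135 CPM in control libraries 1 to 5. Nr1d2 stood at 242, 259, 198 and 231 CPM in DKO and at 118, 113, 116, 96.7 and 110 CPM in control. Neither gene's groups overlapped, and DKO library 3 was the lowest of the DKO libraries for both. Since a gene's count adds up its exons, a transcript from which some exons were deleted still counts, and the genotype labels cannot be checked from these values. Thra, a thyroid hormone receptor gene whose annotated end lies 2820 bases from that of Nr1d1 on the opposite strand of chromosome 11, fell by 0.77 ± 0.08 on the log2 scale (edgeR quasi-likelihood test, adjusted p = 1.78e-05). Reads of Nr1d1 and Thra cannot be told apart beyond their gene models here, since the strand setting of the counting is not given in the sources used here.

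In all, 788 genes (4.66% of those tested) passed an adjusted p of 0.05, of which 478 (2.83%) were higher and 310 (1.83%) lower in DKO. The rises were larger than the falls: 91 genes rose and 19 fell by more than 2-fold, and the median log2 fold change was 0.50 among genes called higher and -0.29 among genes called lower. Among genes called lower, 79.0% changed by less than 0.5 on the log2 scale, against 50.4% of genes called higher. Over all tested genes the median was 0.00. Values in the 4 DKO libraries did not overlap with those in the 5 control libraries in 6.97% of genes, and in 4.03% the DKO libraries were the higher. Genes called lower had a higher median expression (5.97 log2 CPM) than genes called higher (4.65) or all genes (4.33).

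**Figure D1:**
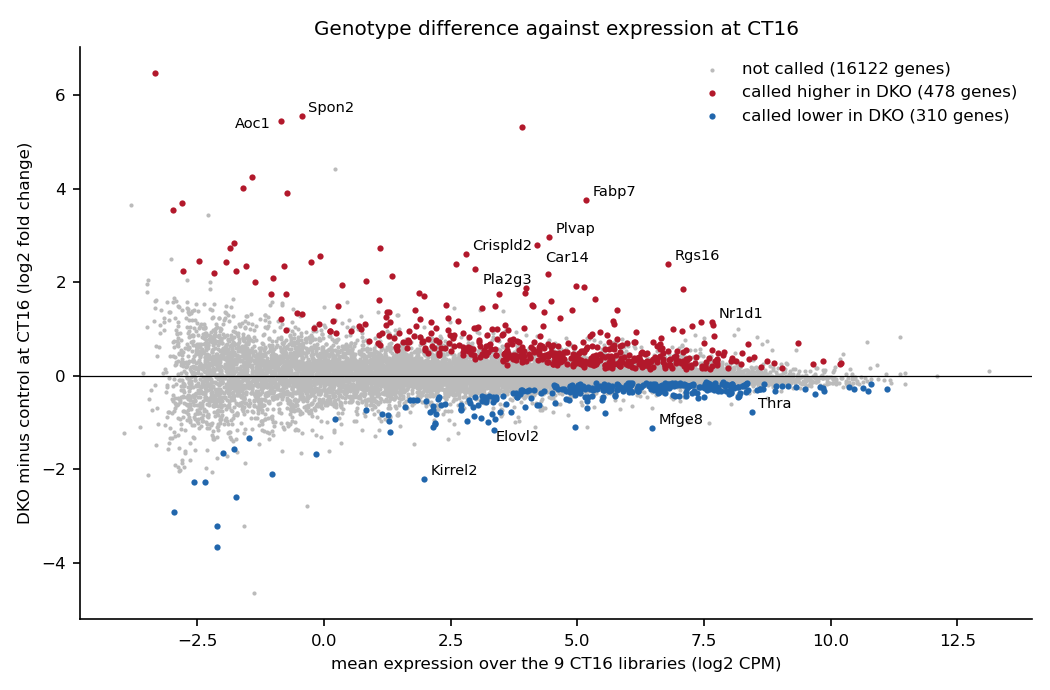
Each point is a gene, with its mean expression over the 9 CT16 libraries (log2 CPM) on the horizontal axis and the fitted DKO minus control log2 fold change at CT16 on the vertical axis. The 478 genes called higher reach far larger differences than the 310 called lower. Among large rises, Rgs16 lies at a mean of 6.79 log2 CPM, Fabp7 at 5.17 and Plvap at 4.44, against a median of 4.33 over all tested genes.

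Library totals at CT16 ran from 32580803 to 68757624 counts. Of the SCN markers, the factor genes Six3 and Six6 and the peptide genes Vip and Avp were counted in all 9 libraries, while the factor gene Shox2 was at 0 in 3 of them. The DKO libraries did not differ from control to the same extent. Over the 788 called genes the DKO library nearest to the control mean was library 1 for 364 genes and library 3 for 308, but library 2 for 62 and library 4 for 54. The summed CPM of 19 myelin genes was 4267, 9977, 4459 and 21844 in DKO libraries 1 to 4 and 8440, 10548, 3903, 3518 and 3228 in control libraries 1 to 5. Library 4 of the DKO group thus held the most myelin transcripts. Summed CPM of 31 genes of neighbouring hypothalamic nuclei was 716, 480, 858 and 493 in DKO and 901, 783, 807, 1066 and 1112 in control, so that DKO library 3 alone lay within the control range. Pmch, the peptide gene of the lateral hypothalamus, was at 90.5 CPM in DKO library 3 and at most 3.99 CPM in any other. In such punches fewer cells of a type and less RNA per cell cannot be told apart. Counts of called members below are therefore also given without DKO libraries 3 and 4, and without these and control library 5, where they move by more than 1 gene.

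Large rises among expressed genes, those with a mean of at least 1 log2 CPM and no overlap between groups, were mostly of genes outside the clock. Fabp7 stood at 155, 192, 111 and 164 CPM in DKO libraries 1 to 4 and at 11.0, 11.9, 9.91, 14.1 and 10.1 CPM in control libraries 1 to 5. All 5 control libraries were close together and far below the DKO libraries, and Fabp7 had the smallest p of all genes (a log2 fold change of 3.76 ± 0.16, edgeR quasi-likelihood test, adjusted p = 8.48e-08). Plvap, which encodes a protein of the diaphragms in fenestrated capillaries, stood at 67.3, 68.3, 51.4 and 87.4 CPM against 9.37, 7.85, 8.24, 8.74 and 9.64 CPM, a rise of 2.97 ± 0.21. Car14, a membrane-bound carbonic anhydrase gene, stood at 46.9, 59.3, 48.3 and 73.4 CPM against 11.6, 13.7, 5.16, 5.12 and 5.69 CPM, a rise of 2.79 ± 0.31. Control libraries 1 and 2 held more Car14 than control libraries 3 to 5, and still lay well below the DKO libraries.

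The same rule named the complexin gene Cplx3 (2.73 ± 0.38), the gene of the secreted protein Crispld2 (2.59 ± 0.23), the retinoic acid synthesis gene Aldh1a2 (2.40 ± 0.34), the G protein regulator gene Rgs16 (2.39 ± 0.34), the secreted phospholipase gene Pla2g3 (2.28 ± 0.17), the small GTPase gene Rasl11b (2.17 ± 0.40), the adhesion gene Ninj2 (2.14 ± 0.44) and the clock gene Npas2 (1.92 ± 0.14). Rgs16, an SCN regulator of G protein signalling, stood at 232, 391, 119 and 437 CPM in DKO and at 62.9, 61.6, 53.7, 57.9 and 45.2 CPM in control. Rasl11b, also an SCN marker, stood at 28.6, 67.2, 28.4 and 87.4 CPM in DKO and at 10.9, 15.7, 7.86, 9.72 and 14.3 CPM in control. Both were highest in DKO libraries 2 and 4, and neither overlapped with control. Ninj2 stood at 4.00, 6.13, 4.00 and 11.1 CPM in DKO and at 1.89, 2.52, 1.00, 1.08 and 0.615 CPM in control, and its call was lost without DKO libraries 3 and 4 (1.83, adjusted p = 0.0681). That of Rasl11b was lost only without these and control library 5 (2.11, adjusted p = 0.0609), among all the alternatives run. Rasl11b and Rgs16 rose in the fits with the myelin or neighbouring nuclei score as covariate as well.

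Some transcripts were close to undetected in control and counted in every DKO library. Aoc1, which encodes diamine oxidase, an enzyme that degrades histamine, stood at 3.72, 3.90, 2.17 and 5.04 CPM in DKO and at 0.124, 0.0385, 0.0955, 0.0407 and 0.132 CPM in control. Spon2, a secreted matrix protein gene, stood at 4.89, 5.90, 4.79 and 7.43 CPM in DKO and at 0.248, 0, 0.0955, 0.163 and 0.132 CPM in control. The groups were far apart for both genes. Their fitted rises were 5.44 ± 0.36 (adjusted p = 2.79e-07) and 5.55 ± 0.55 (adjusted p = 4.43e-05).

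Kirrel2 had the largest fall under the same rule. This adhesion gene of the nephrin family stood at 1.57, 0.937, 3.13 and 1.28 CPM in DKO and at 6.95, 7.68, 7.21, 8.23 and 10.4 CPM in control. The DKO libraries were all below the control libraries, library 3 being nearest to them, and Kirrel2 fell by 2.21 ± 0.28 (adjusted p = 0.000234). Nphs1, which encodes its relative nephrin, starts 2542 bases from the start of Kirrel2 on the opposite strand of chromosome 7 and also fell (-2.09 ± 0.49, adjusted p = 0.0208), at levels of 0.0937 to 1.63 CPM. Mfge8, which encodes a secreted bridge for phagocytosis made by glia, stood at 54.3, 55.4, 67.8 and 54.8 CPM in DKO and at 125, 119, 134, 134 and 117 CPM in control. Both groups of Mfge8 were tight and apart, and it fell by 1.12 ± 0.07 (adjusted p = 1.16e-07). The others were the muscle methyltransferase gene Smyd1 (-1.20 ± 0.26), the mitochondrial carrier gene Slc25a34 (-1.16 ± 0.19), the unnamed genes 2900052N01Rik (-1.09 ± 0.12) and 2210416O15Rik (-1.02 ± 0.13), the phospholipid flippase gene Atp8b5 (-1.09 ± 0.25), the ionotropic serotonin receptor gene Htr3a (-1.001 ± 0.19), the elongase gene Elovl2 (-0.99 ± 0.13), the GLUT4 gene Slc2a4 (-0.97 ± 0.24), the Notch target Hes5 (-0.96 ± 0.17) and the citrate transporter gene Slc13a5 (-0.92 ± 0.14). The calls of Smyd1 and Slc2a4 were lost without DKO library 2, and that of Atp8b5 without DKO library 4. The call of Slc2a4 was also lost without DKO library 1 or control library 2, 3 or 4.

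**Figure D2:**
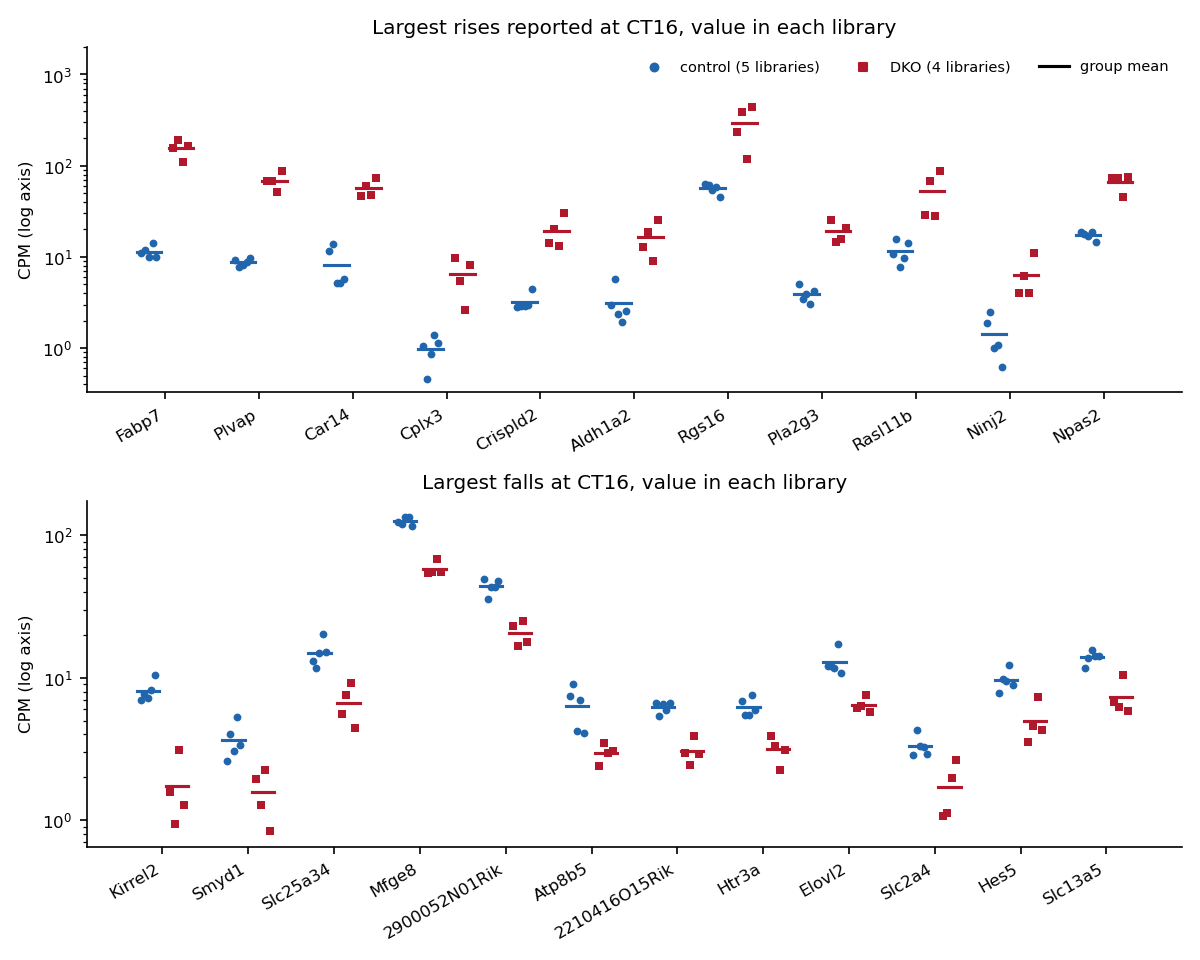
CPM on a log axis in each CT16 library (blue circles, 5 control; red squares, 4 DKO; bars, group means) for the largest rises reported and the 12 largest falls. No gene shown has overlapping groups, by the rule that chose them, and the separation is widest for Fabp7 among the rises and for Kirrel2 among the falls.

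Promoter sequence was looked up for the tested genes in RefSeq windows of 300 bases (250 before and 50 after a start, GRCm38.p6, the mm10 build), and 12563 of the 16910 had one. The element bound by REV-ERB and ROR, searched as TAGGTCA or TGGGTCA on both strands, was found in a window of 6.35% of all these genes, of 11.6% (43 of 370) of the genes called higher and of 7.05% (16 of 227) of the genes called lower. The E-box CACGTG, the element of CLOCK and BMAL1, was found in 10.9% of all, 18.1% of higher and 8.37% of lower genes. The D-box, searched as TTANNTAA, was found in 4.56%, 5.68% and 3.08%. The search set no condition on the bases that flank these letters. A match is a description of these letters in this window and not a site of binding. The stretch around the element is shown for the 4 genes of smallest p among named genes called higher with one before the start. It places the element in its promoter, 5′ to 3′ on the gene's strand. Capitals mark the element as it reads on that strand (the reverse complement of TAGGTCA or TGGGTCA).
Fabp7 (chr10:57784702-57784808, plus strand): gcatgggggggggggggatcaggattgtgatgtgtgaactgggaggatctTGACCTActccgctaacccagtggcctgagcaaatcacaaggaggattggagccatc
Aoc1 (chr6:48895127-48895233, plus strand): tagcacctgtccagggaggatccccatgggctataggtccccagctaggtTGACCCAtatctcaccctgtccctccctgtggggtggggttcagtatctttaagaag
Nfil3 (chr13:52981040-52981101, minus strand): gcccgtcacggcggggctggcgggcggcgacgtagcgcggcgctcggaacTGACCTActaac
Acsl3 (chr1:78657663-78657769, plus strand): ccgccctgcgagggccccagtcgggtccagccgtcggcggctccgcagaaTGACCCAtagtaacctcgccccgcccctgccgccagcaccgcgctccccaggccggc
The element lay 171 bases upstream of the start of Fabp7, 78 of Aoc1, 12 of Nfil3 and 112 of Acsl3. These genes have widely different roles and levels: Nfil3, whose product represses D-box genes, stood 1.37 ± 0.13 higher on the log2 scale, and Acsl3, which activates fatty acids, 0.50 ± 0.06 higher.

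The gene lists below and their members were chosen with earlier results of these data known. Called shares set beside those of all genes therefore describe the lists and do not test them. Some genes are members of several lists. Clock genes were mostly higher. Of 9 clock genes listed as having REV-ERB elements, 5 were higher and none lower, and of 11 clock repressors and outputs 8 were higher and none lower, against 2.83% of all genes. The former list was not made from the promoter search. In the windows searched, the element's letters were found for Arntl and Nfil3 but not for Npas2 or Cry1. Cry1, a repressor of CLOCK and BMAL1, stood at 54.4, 57.4, 46.3 and 63.2 CPM in DKO and at 28.7, 38.9, 30.2, 26.1 and 25.4 CPM in control. Arntl stood at 79.6, 92.6, 63.4 and 98.4 CPM in DKO and at 39.2, 44.2, 38.0, 35.1 and 27.5 CPM in control. In neither gene did the groups overlap.

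Some genes of lipid handling passed in each direction. Of 21 fatty acid binding proteins, elongases and desaturases, Fabp7 was higher, 4 were lower (Elovl2, Fads1, Fads2, Tecr) and 16 did not pass, with a median of -0.05, where 2.83% of all genes were higher and 1.83% lower. The lower ones act in the making of long polyunsaturated fatty acids or in chain elongation. Elovl2, which elongates polyunsaturated chains, stood at 6.11, 6.29, 7.55 and 5.78 CPM in DKO and at 12.1, 12.1, 11.7, 17.3 and 10.9 CPM in control. Fads2, the first desaturase of that route, stood at 144, 141, 172 and 153 CPM in DKO and at 203, 216, 198, 215 and 204 CPM in control. Fads1, the second desaturase, stood at 242, 215, 277 and 262 CPM in DKO and at 340, 374, 329, 307 and 323 CPM in control. None of these groups overlapped, and the log2 changes of Fads2 and Fads1 were -0.44 ± 0.05 and -0.42 ± 0.07 (adjusted p = 0.000102 and 0.00122). The calls of Elovl2, Fads1 and Fads2 were kept in all 28 alternatives run.

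Of 36 genes of fatty acid activation, oxidation and lipid droplets, 5 were higher, none was lower and 31 did not pass (median 0.12), against 2.83% of all genes higher and 1.83% lower. Acsl3 stood at 273, 304, 269 and 312 CPM in DKO and at 192, 219, 200, 211 and 201 CPM in control, without overlap. Mgll, the monoacylglycerol lipase gene, stood at 74.3, 90.4, 68.3 and 101 CPM in DKO and at 53.6, 56.6, 50.7, 51.3 and 43.2 CPM in control (0.71 ± 0.10, adjusted p = 0.000771). Acot1 (0.76 ± 0.14), a thioesterase gene with close paralogues among which counts may be split, the oxidation enzyme gene Hadhb (0.29 ± 0.06) and Angptl4, an inhibitor of lipoprotein lipase, made up the 5. The groups of Acot1 and Hadhb overlapped in their nearest libraries. The count was 3 without DKO library 2, without DKO libraries 3 and 4, and without these and control library 5.

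Of 26 phospholipases and enzymes of prostaglandins and lysophospholipids, 2 were higher and none lower (7.69% called, against 4.66% of all genes). Pla2g3 stood at 25.3, 14.8, 15.6 and 20.6 CPM in DKO and at 5.09, 3.44, 3.89, 3.07 and 4.28 CPM in control. Pla2g7, the gene of a phospholipase that degrades platelet-activating factor, stood at 239, 352, 222 and 288 CPM in DKO and at 120, 144, 124, 139 and 96.2 CPM in control (1.14 ± 0.13, adjusted p = 0.000254). Both were well apart from control in every library. Of 36 genes of cholesterol synthesis, uptake and SREBP control none passed (median 0.00), the nearest being Cyp46a1, the neuronal cholesterol hydroxylase gene, at -0.18 ± 0.05 (adjusted p = 0.0690).

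Among protein folding genes the calls were of lower levels. Of 51 heat shock proteins and chaperones, 12 were lower, none was higher and 39 did not pass, where 1.83% of all genes were lower, and 44 of the 51 had a negative difference (median -0.11). They were Hspa1a, Hspa1b, Hspa5, Hsp90ab1, Hsp90b1, Hspb1, Hsph1, Dnaja1, Stip1, Chordc1, Fkbp4 and Cacybp. Hspa1a, the inducible heat shock protein 70 gene, stood at 9.51, 8.07, 10.1 and 5.48 CPM in DKO and at 11.7, 14.3, 15.4, 15.4 and 14.4 CPM in control. Stip1, which links the chaperones HSP70 and HSP90, stood at 247, 239, 221 and 208 CPM in DKO and at 299, 267, 295, 303 and 306 CPM in control. Neither gene overlapped between groups, though the falls were unequal in size: -0.78 ± 0.16 for Hspa1a and -0.36 ± 0.05 for Stip1 (adjusted p = 0.00864 and 0.000517). Hspa1a and Hspa1b are near-identical, so how reads were shared out between them is not known.

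Of 39 genes of the stress response and protein folding of the endoplasmic reticulum, 8 were lower (Xbp1, Hyou1, Pdia3, Pdia6, Calr, Sdf2l1, Hspa5, Hsp90b1) and Ddit4 alone was higher, with 30 that did not pass and a median of -0.12. Among all genes 1.83% were lower and 2.83% higher. Hspa5 and Hsp90b1 belong to this list and to that of chaperones. Calr, a calcium-binding chaperone gene, stood at 370, 363, 341 and 329 CPM in DKO and at 441, 386, 438, 439 and 431 CPM in control. Pdia6, a disulphide isomerase gene, stood at 151, 135, 145 and 130 CPM in DKO and at 168, 164, 181, 168 and 195 CPM in control. Control library 2 was the lowest control for both, but still above every DKO library. The log2 changes were -0.29 ± 0.05 and -0.32 ± 0.06 (adjusted p = 0.00182 and 0.00398).

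These counts rest on small changes and moved with the libraries used. The number of lower chaperone genes was 5 without DKO libraries 3 and 4 and 4 without these and control library 5. It was also 5 without DKO library 2, and 7 without DKO library 4 or control library 3. Over all alternatives it ranged from 4 to 19. The endoplasmic reticulum count was 3 and 1 without those 2 and 3 libraries, 13 without DKO library 1, and ranged from 1 to 13. All 15 general neuron genes had a negative difference (median -0.13), but none was called and their summed CPM overlapped, at 6124 to 7829 in DKO and 7094 to 8267 in control. The part of these levels in the lower chaperone counts was not tested.

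Of 21 genes known to be induced by glucocorticoids, 7 were higher, 1 (Mertk) was lower and 13 did not pass, with a median of 0.34. Among all genes 2.83% were higher and 1.83% lower. Cdkn1a, a cell cycle inhibitor gene, stood at 66.0, 92.1, 69.6 and 84.7 CPM in DKO and at 17.9, 24.4, 25.5, 27.3 and 29.2 CPM in control, and rose by 1.65 ± 0.12 (adjusted p = 2.12e-06). Tsc22d3 (GILZ), a mediator of glucocorticoid action, stood at 249, 293, 252 and 267 CPM in DKO and at 173, 205, 195, 180 and 197 CPM in control. Mt2, a metallothionein gene, stood at 113, 148, 145 and 152 CPM in DKO and at 70.2, 94.2, 66.2, 85.5 and 79.6 CPM in control. For Cdkn1a, Tsc22d3 and Mt2, each DKO library exceeded each control library. Klf9, Ddit4, Htra1 and Angptl4 made up the 7. Cdkn1a, Mt2, Ddit4, Htra1 and Angptl4 are also counted in other lists here. The count was 5 without DKO libraries 3 and 4 and 3 without these and control library 5. Ddit4, which stood at 0.49 ± 0.12 with overlapping groups, lost its call in 10 of 28 alternatives, among them those without DKO library 2 or control library 1, 3, 4 or 5.

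Of 35 metallothioneins, glutathione and antioxidant genes, 6 were higher and none lower (median 0.07, 17.1% called against 4.66% of all genes). Besides Mt2 these were Gstm1 (0.49 ± 0.08) and Gstm7 (0.66 ± 0.12), glutathione transferase genes of one cluster among which reads may be shared, Slc39a14 (0.33 ± 0.05), a zinc and manganese importer gene, Gpx8 and Prdx6. Gstm1 stood at 332, 392, 370 and 375 CPM in DKO and at 239, 257, 239, 303 and 270 CPM in control. The groups were apart, control library 4 being the nearest. The count was 4 without DKO libraries 3 and 4 and 3 without these and control library 5. Of 34 carbonic anhydrases and transporters of bicarbonate or protons, 8.82% were called, against 4.66% of all genes. Car14, Car4 (0.67 ± 0.10) and Car9 (0.60 ± 0.16) were higher and none lower, with a median of 0.00. Car9 overlapped with control and lost its call in 15 of 28 alternatives.

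**Figure D3:**
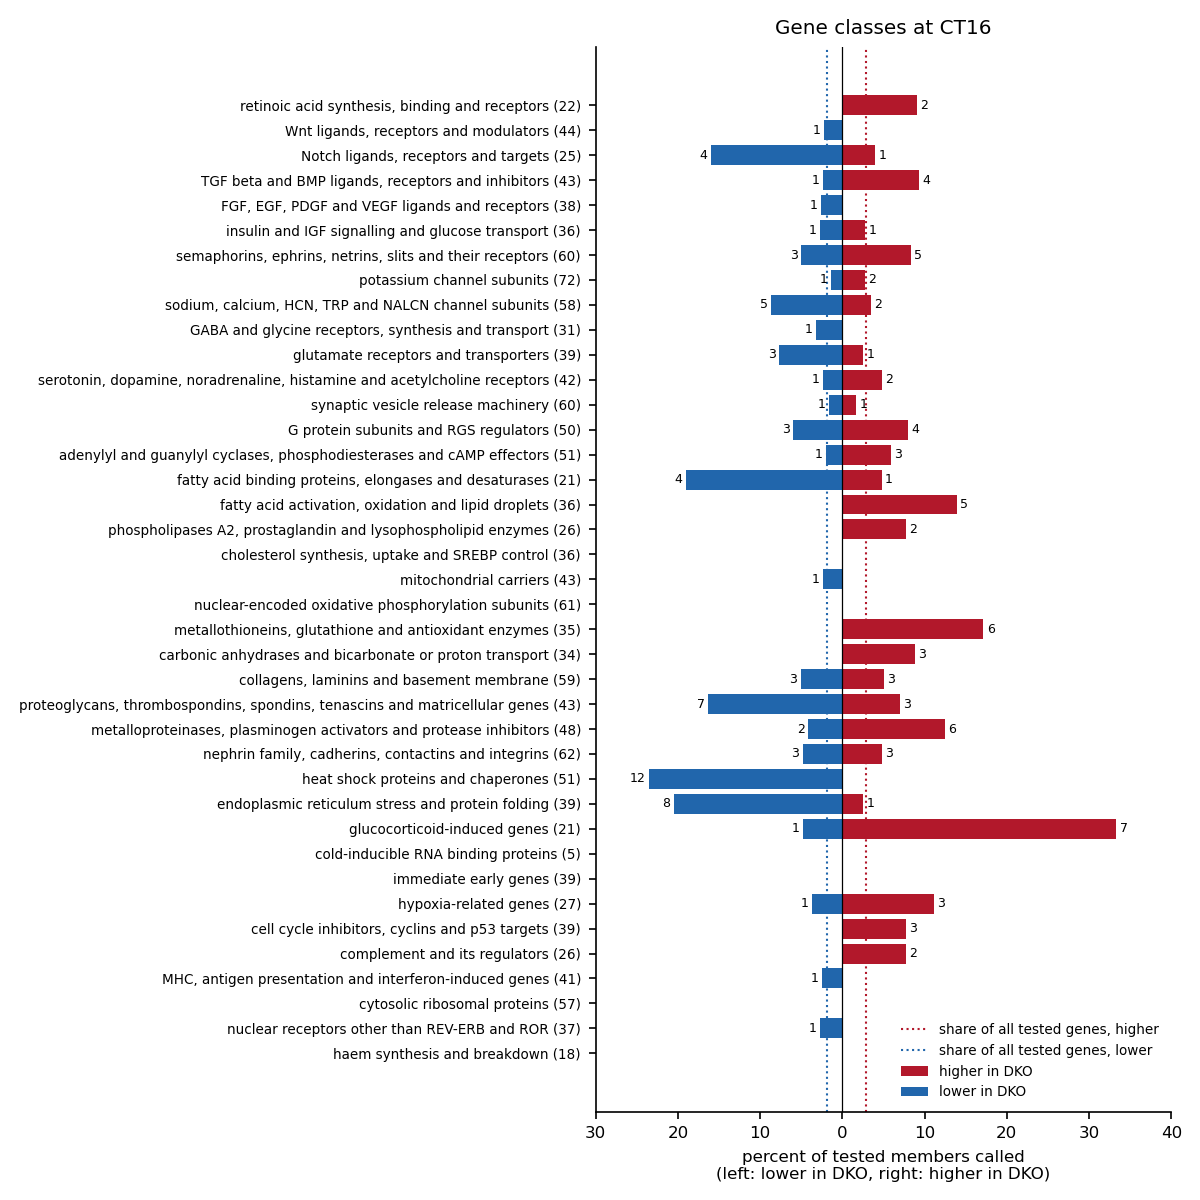
For each gene list other than the clock and tissue marker lists (number of tested members in brackets), bars give the percent of tested members called higher (right, red) and lower (left, blue) in DKO at CT16, with the number called at each bar's end, and dotted lines mark the shares among all tested genes, 2.83% and 1.83%. The longest bars drawn are those of glucocorticoid-induced genes to the right and of chaperones and endoplasmic reticulum folding genes to the left, while cholesterol, oxidative phosphorylation, ribosomal, cold-inducible, immediate early and haem genes have none. Lists and members were chosen with earlier results of these data known, so the bars describe and do not test them.

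Genes of the extracellular matrix changed in both directions. Called shares were 23.3% for proteoglycans and matricellular genes, 16.7% for metalloproteinases and inhibitors, 10.2% for collagens and laminins and 9.68% for adhesion genes. Among all genes 4.66% were called. Of 43 proteoglycans, thrombospondins, spondins and matricellular genes, 3 were higher (Spon1, Spon2, Crispld2) and 7 lower (Bcan, Ncan, Hapln1, Bgn, Thbs2, Cyr61, Mfge8), with a median of -0.08. Bcan and Ncan encode brevican and neurocan, the chondroitin sulphate proteoglycans of brain matrix and perineuronal nets, and Hapln1 a link protein that binds them to hyaluronan. Bcan stood at 233, 232, 253 and 253 CPM in DKO and at 331, 347, 301, 332 and 341 CPM in control. The groups of Bcan were well apart, and it fell by 0.44 ± 0.05 (adjusted p = 7.67e-05). The number of lower genes was 6 without DKO libraries 3 and 4 and 3 without these and control library 5. Leaving out single libraries gave 3 without DKO library 2 or 4 and 4 without DKO library 1 or control library 1, 3 or 5, while without control library 2 the higher genes numbered 5.

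Of 48 metalloproteinases, plasminogen activators and inhibitors, 6 were higher, among them Mmp14, Adam12, Htra1, Serpine2 and Plat, 2 were lower (Adam15, Adamts2) and 40 did not pass, with 27 positive differences and 21 negative. Mmp14, a membrane-bound matrix metalloproteinase gene, stood at 39.1, 42.4, 33.4 and 51.2 CPM in DKO and at 14.1, 9.91, 14.998, 15.96 and 13.7 CPM in control (1.60 ± 0.13, adjusted p = 1.06e-05). Plat, which encodes tissue plasminogen activator, stood at 76.3, 103, 81.4 and 120 CPM in DKO and at 35.1, 39.4, 29.97, 36.8 and 37.5 CPM in control (1.41 ± 0.12, adjusted p = 1.38e-05). Both were higher in every DKO library, and 6 genes were higher and 0 lower without DKO libraries 3 and 4, and also without these and control library 5. The lower count was unsteady, at 0 without DKO library 2 or control library 4, 1 without most other single libraries and 4 to 5 without DKO library 1 or 3 or control library 2.

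Of 59 collagens, laminins and basement membrane genes, 3 were higher (Col5a1, Col5a3, Lama5) and 3 lower (Col12a1, Col18a1, Fbln1). Col5a3, a fibrillar collagen gene, stood at 46.1, 51.9, 44.2 and 63.3 CPM in DKO and at 16.6, 18.9, 17.4, 21.6 and 21.6 CPM in control (1.41 ± 0.14, adjusted p = 3.69e-05). Its groups were far apart, whereas the calls of Col18a1 (-0.78 ± 0.18) and Lama5 (0.46 ± 0.10) were lost without DKO library 4, and those of Col18a1 and Col5a1 (0.64 ± 0.14) without DKO library 2. That of Col18a1 was lost without control library 4 too. This list gave 5 higher and 1 lower without DKO libraries 3 and 4, and 3 higher and 1 lower without these and control library 5. Among 62 nephrin family, cadherin, contactin and integrin genes 3 were higher and 3 lower. Itga7 (0.72 ± 0.08), a laminin receptor subunit gene, and Itgb5 (0.64 ± 0.10) were higher with Cdh1, and Kirrel2, Nphs1 and Cdh24 (-0.63 ± 0.09) lower. The lower count was 8, 6 and 5 without DKO library 1, DKO library 3 and control library 2.

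Among secreted signals and their receptors the called share ran from 2.27% for Wnt to 20% for Notch genes, against 4.66% of all genes. It was 11.6% for TGF beta and BMP, 9.09% for retinoic acid, 5.56% for insulin and 2.63% for FGF and related genes. Of 43 genes of TGF beta and BMP signalling, 4 were higher and 1 lower: the ligand genes Bmp7 (0.67 ± 0.10) and Bmp6, the receptor gene Bmpr1b (0.45 ± 0.09) and the target Id2 (1.10 ± 0.10) were higher, and the ligand gene Gdf11 (-0.31 ± 0.07) lower. Id2, an inhibitor of helix-loop-helix factors, stood at 67.2, 84.4, 70.8 and 102 CPM in DKO and at 33.9, 36.7, 38.0, 42.4 and 37.1 CPM in control, without overlap. The call of Gdf11 was lost without DKO library 2 or control library 5. The list gave 3 higher and 2 lower without DKO libraries 3 and 4, and 3 higher and 1 lower with control library 5 left out as well. Of 25 Notch genes, the target genes Hes5 (-0.96 ± 0.17) and Nrarp (-0.32 ± 0.08), the ligand-like Dlk2 (-0.34 ± 0.08) and the modifier Lfng were lower and Hes6 (0.41 ± 0.07), an antagonist of Hes factors, was higher. Hes5 stood at 3.51, 4.61, 7.36 and 4.30 CPM in DKO and at 7.82, 9.74, 9.51, 12.3 and 8.96 CPM in control. DKO library 3 came close to the lowest control library. The lower Notch count was 1 without DKO library 2 or 4, and 2 without control library 4. Without DKO libraries 3 and 4, 2 Notch genes were higher and 3 lower, and without these and control library 5 none was higher and 2 were lower.

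Of 22 genes of retinoic acid synthesis, binding and receptors, the synthesis genes Aldh1a2 and Rdh5 (0.90 ± 0.15) were higher and none lower. Aldh1a2 stood at 12.8, 18.6, 9.04 and 25.7 CPM in DKO and at 3.01, 5.68, 2.36, 1.95 and 2.55 CPM in control. Each DKO library was above each control library, control library 2 being the highest of the controls. Of 44 Wnt genes only the secreted inhibitor gene Sfrp1 passed (-0.70 ± 0.18), and of 38 FGF, EGF, PDGF and VEGF genes only Vegfb (-0.22 ± 0.06), calls that were lost in 8 and 16 of 28 alternatives. That of Sfrp1 was lost without DKO library 2 or 4 or control library 2, 3 or 4. Of 36 insulin, IGF and glucose transport genes Slc2a4 was lower and Igfbp2 (0.76 ± 0.19), an IGF binding protein gene, higher. The call of Igfbp2 was lost in 10 of 28 alternatives, among them those without DKO library 2 or 4 or control library 1, 4 or 5. Of 27 hypoxia-related genes Pfkfb3, Ddit4 and Car9 were higher and Epas1 lower (14.8% called, against 4.66% of all genes). Ddit4 and Car9 are also counted in other lists. Pfkfb3, an activator of glycolysis, stood at 88.3, 97.5, 84.3 and 99.7 CPM in DKO and at 56.3, 55.2, 57.3, 52.4 and 60.5 CPM in control (0.71 ± 0.05, adjusted p = 1.33e-06). Epas1, which encodes HIF2 alpha, was at 162 to 181 CPM in DKO and 197 to 225 CPM in control. Both sets of libraries were apart. Without DKO libraries 3 and 4, with or without control library 5, the higher count of the hypoxia list was 1.

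Among axon guidance genes, 5 of 60 were higher (Sema5b, Efna3, Epha8, Ntn1, Slit2) and 3 lower (Sema4a, Sema6c, Ephb3). Together 13.3% of this list were called, against 4.66% of all genes. Epha8, an ephrin receptor gene, stood at 31.1, 38.2, 17.3 and 40.3 CPM in DKO and at 10.1, 10.9, 9.27, 9.51 and 6.43 CPM in control (1.78 ± 0.22, adjusted p = 0.000517). Ntn1, which encodes netrin, stood at 24.4, 24.6, 27.2 and 23.2 CPM in DKO and at 13.9, 16.3, 16.2, 16.02 and 15.6 CPM in control (0.67 ± 0.07, adjusted p = 3.38e-05). Epha8 was lowest in DKO library 3, in which Ntn1 was highest, and both were apart from control. Without DKO library 2 the counts were 2 higher and 0 lower. The lower count was 6 without DKO library 1 and 1 without DKO library 4 or control library 3, 4 or 5. It was also 1 without DKO libraries 3 and 4, with or without control library 5.

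The called share varied among lists of electrical and synaptic function, against 4.66% of all genes. It was 14% for G protein and RGS genes, 12.1% for sodium, calcium, HCN and TRP channels and 10.3% for glutamate genes. The lowest were 3.23% for GABA and glycine genes, 3.33% for vesicle release and 4.17% for potassium channels. Of 72 potassium channel subunits, Kcnj10 and Kcna2 were higher and Kcnk12 lower. Kcnj10, the inward rectifier of glia, stood at 810, 935, 768 and 929 CPM in DKO and at 560, 576, 526, 513 and 475 CPM in control (0.70 ± 0.07, adjusted p = 1.38e-05). Kcna2, a subunit of axonal voltage-gated channels, stood at 284, 302, 270 and 256 CPM in DKO and at 222, 208, 222, 205 and 165 CPM in control (0.44 ± 0.07, adjusted p = 0.00185). Neither overlapped. Of 58 sodium, calcium, HCN and TRP channel subunits, Trpm3 (0.41 ± 0.07) and Trpm7 were higher and Cacna1i, Cacnb1, Cacng4 (-0.49 ± 0.07), Hcn3 (-0.30 ± 0.07) and Trpc4 (-0.36 ± 0.08) lower. The lower count was 12 without DKO library 1, 3 without DKO library 2 or 4, and 9 without control library 2. It was 8 without control library 2 of CT4. Removal of DKO libraries 3 and 4 left 1 higher and 3 lower, and removal of these and control library 5 left 1 and 2. Trpm7 was the higher gene most often lost: 1 higher gene was left without DKO library 2 or 4, control library 1, 3, 4 or 5, or, of the CT4 libraries, DKO library 1 or 3 or control library 3.

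Of 31 GABA and glycine genes only Gabre passed (-0.45 ± 0.11), which was lost without DKO library 2 or 4 or control library 1 or 4. Of 39 glutamate genes Shank2 (0.27 ± 0.05) was higher and Grin3a (-0.29 ± 0.08), Grik5 (-0.19 ± 0.05) and Grm2 (-0.56 ± 0.15) were lower. The lower glutamate calls were each lost in 10 to 16 of 28 alternatives, and none was left without DKO libraries 3 and 4, with or without control library 5. Of 42 monoamine and acetylcholine receptor genes, the histamine autoreceptor gene Hrh3 (0.49 ± 0.10) and the muscarinic receptor gene Chrm4 (0.63 ± 0.11) were higher and Htr3a lower. Of this list 7.14% were called, against 4.66% of all genes. Hrh3 stood at 115, 99.4, 105 and 82.3 CPM in DKO and at 71.6, 62.3, 69.4, 74.1 and 80.1 CPM in control. Its lowest DKO library only just exceeded its highest control library. Htr3a stood at 3.88, 3.30, 2.25 and 3.11 CPM in DKO and at 6.86, 5.46, 5.49, 7.62 and 5.93 CPM in control. It was lower in every DKO library, and its call was lost without DKO libraries 3 and 4. Of 60 genes of vesicle release Cplx3 was higher and Syt17 (-0.58 ± 0.13), lost without DKO library 2, lower.

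Of 50 G protein subunit and RGS genes, Rgs16, Rgs6 (1.01 ± 0.10), Gng7 and Gng12 were higher and Gnas, Gng3 (-0.22 ± 0.05) and Rgs9 (-0.23 ± 0.06) lower. Gnas, the stimulatory G protein alpha subunit gene, stood at 2231, 1931, 1924 and 1950 CPM in DKO and at 2454, 2172, 2414, 2573 and 2543 CPM in control. The groups overlapped, DKO library 1 lying above control library 2. No lower call of this list was left without DKO libraries 3 and 4, with or without control library 5. The higher count was 2 without DKO library 2 or 4 or control library 3. The lower count was 1 without DKO library 2 or control library 1, and 5 without DKO library 3. Of 51 genes of cyclic nucleotide signalling, the natriuretic peptide receptor gene Npr1 (1.46 ± 0.27) and the phosphodiesterase genes Pde2a and Pde9a (0.46 ± 0.07) were higher and the kinase gene Prkaca (-0.25 ± 0.05) lower. That was 7.84% called, against 4.66% of all genes. Pde2a stood at 398, 499, 352 and 471 CPM in DKO and at 280, 279, 262, 269 and 251 CPM in control (0.68 ± 0.08, adjusted p = 0.000127). All DKO libraries lay above control, with the spread wider in DKO.

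Several classes showed no called member, where 4.66% of all genes were called. At that share a list of such a size may hold none, so the absence of calls does not set these classes apart. None of 61 nuclear-encoded oxidative phosphorylation subunits passed (median -0.06, 13 positive), nor did any of 57 ribosomal proteins (median 0.00), 18 haem genes (median 0.06), 5 cold-inducible RNA binding proteins or 39 immediate early genes (median -0.24). The nearest of these were the ribosomal protein gene Rpl22 (0.22 ± 0.06, adjusted p = 0.0517), with overlapping groups, and Jund (-0.28 ± 0.08, adjusted p = 0.0522), an AP-1 factor gene, which stood at 78.3 to 109 CPM in DKO and 110 to 121 CPM in control. Of 43 mitochondrial carriers only Slc25a34 passed, and of 37 other nuclear receptors only Thra. Of 41 MHC and interferon genes Tapbp was lower (-0.24 ± 0.05). Of 26 complement genes C4b (1.86 ± 0.37) and Clu (0.26 ± 0.07), the latter lost in 18 of 28 alternatives, were higher. C4b, which shares reads with its copy C4a, stood at 187, 358, 139 and 525 CPM in DKO and at 104, 117, 59.7, 66.2 and 70.2 CPM in control. It was highest in DKO libraries 2 and 4, the DKO libraries with most myelin transcripts. With the myelin score as covariate C4b still rose (1.30, adjusted p = 0.00146), whereas the call was lost with the neighbouring nuclei score (1.59, adjusted p = 0.0654), without DKO library 2 (1.77, adjusted p = 0.0559) and without DKO libraries 3 and 4 and control library 5 (1.65, adjusted p = 0.0689). It was lost as well in the CT16 libraries alone (1.86, adjusted p = 0.0747) and with the replicate number as a block (1.68, adjusted p = 0.114).

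Tissue markers were set against the genotype groups in each library. Among all tested genes 4.66% were called. All 19 myelin genes had a positive difference (median 0.73, none called), but the summed levels of the groups overlapped. Of 18 microglial genes 17 were positive (median 0.20, none called). Their sums were 373, 468, 418 and 647 CPM in DKO libraries 1 to 4 and 382 to 441 in control. Without DKO libraries 3 and 4 the median was 0.27 for myelin and 0.01 for microglial genes. With control library 5 also left out it was 0.10 and 0.01. Genes of neighbouring nuclei had a median of -0.49 over 31 genes with none called. Oxt stood at 157, 127, 131 and 130 CPM in DKO and at 308, 176, 172, 435 and 281 CPM in control, without overlap but short of the threshold (-1.01 ± 0.34, adjusted p = 0.129). Receptors of SCN peptides and light input summed to 826 to 925 CPM in DKO and 966 to 1048 in control, without overlap. Of these 17 receptor genes 15 had a negative difference (median -0.15) and none was called. SCN peptide genes (median -0.11) overlapped between groups.

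SCN identity markers had a median of 0.00 over 17 genes, of which Rgs16 and Rasl11b alone were called, both higher (11.8%, against 4.66% of all genes). Their summed CPM was 2260, 2417, 1660 and 2822 in DKO and 2238, 2404, 1987, 2094 and 2021 in control. DKO library 3 was the lowest and DKO library 4 the highest of the 9. Astrocyte genes summed to 7367 to 8538 CPM in DKO and 7324 to 8631 in control. Within that list Gja1 (0.32 ± 0.07) and Agt (0.40 ± 0.10) were higher and Aldh1l1 (-0.35 ± 0.06) lower (16.7% called, against 4.66% of all genes). Aldh1l1 stood at 56.8, 57.2, 66.1 and 54.8 CPM in DKO and at 69.5, 75.3, 76.4, 80.5 and 73.9 CPM in control, without overlap, while Gja1 and Agt overlapped. The calls of Gja1 and Agt were lost without DKO libraries 3 and 4. Without DKO library 4 alone both were lost as well, and that of Agt also without DKO library 2 or 3 or control library 3, 4 or 5.

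Vessel markers were taken in separate lists. The 20 genes of brain endothelium with barrier properties had a median of -0.03, none called, at 543 to 622 summed CPM in DKO and 568 to 626 in control. Of 7 genes of fenestrated or activated endothelium, Plvap and Apln were higher and 5 did not pass (28.6% called, against 4.66% of all genes). This list summed to 190 to 251 CPM in DKO and 122 to 143 in control. Apln, which encodes the peptide apelin, stood at 33.4, 50.2, 34.9 and 45.3 CPM in DKO and at 16.8, 20.7, 18.6, 17.9 and 13.2 CPM in control (1.23 ± 0.13, adjusted p = 4.81e-05). The sums of this list rested on those 2 genes. Choroid plexus genes overlapped between groups, with Folr1 called (1.34 ± 0.36) at 0.308 to 1.65 CPM, a call lost in 14 of the 27 alternatives that gave it a value, among them those without DKO library 2 or 3 or any single control library of CT16. Of 12 markers of cortex, striatum and hippocampus, Ppp1r1b (DARPP-32) was higher (1.52 ± 0.22) and Rgs9 lower, the latter lost in 16 of 28 alternatives. Here 16.7% were called, against 4.66% of all genes. Ppp1r1b stood at 24.4, 26.3, 32.8 and 43.8 CPM in DKO and at 9.77, 15.03, 10.6, 8.03 and 11.7 CPM in control, without overlap. Its call was lost without DKO libraries 3 and 4 and control library 5. Like the targeted Nr1d1, it lies on chromosome 11 (Ppp1r1b from base 98348738, Nr1d1 from base 98767932). Any bearing of this position on its level was not tested. Of red blood cell genes, Hbb genes and Hba-a2 had no count in any of the 9 libraries, and Hba-a1 at most 1. Alas2 was counted in all 9, with up to 326 counts. How reads shared among globin genes were counted is not known, so the globin counts do not measure red blood cell content.

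**Figure D4:**
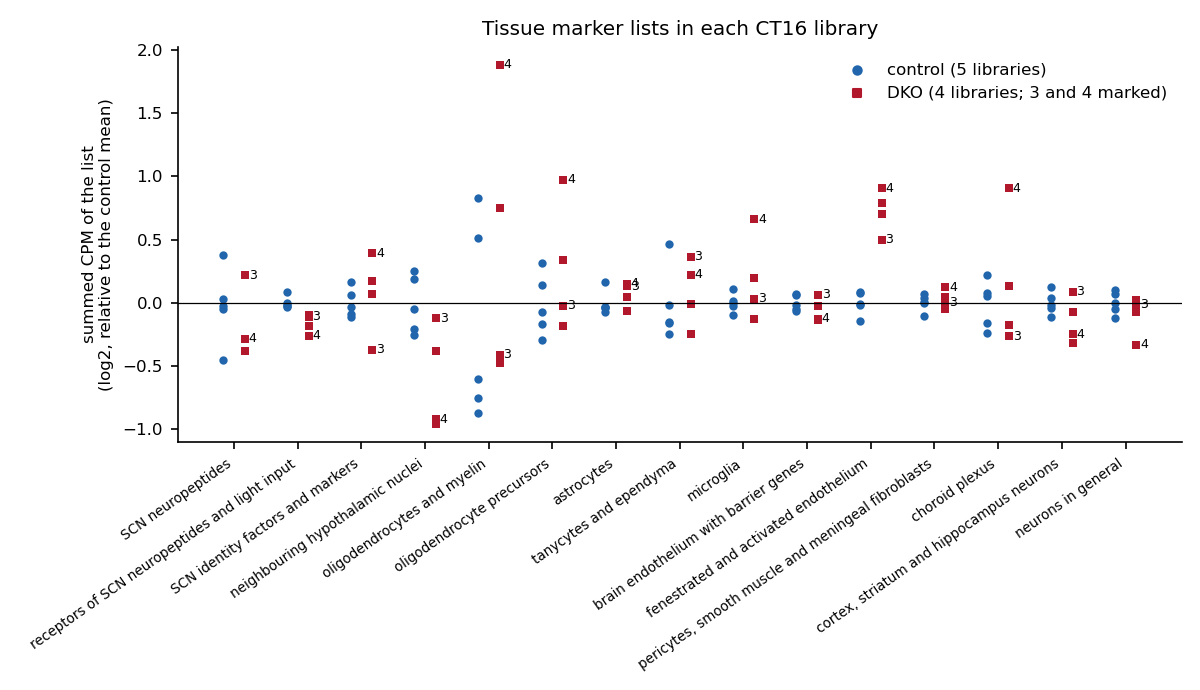
Summed CPM of each tissue marker list in each CT16 library, as log2 relative to the control mean (blue circles, 5 control; red squares, 4 DKO, with libraries 3 and 4 numbered). DKO library 4 stands highest for myelin at 21844 summed CPM, and the groups are apart for fenestrated endothelium (190 to 251 against 122 to 143) and for SCN receptors (826 to 925 against 966 to 1048).

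Tissue content was also put into the fit. With the myelin score as covariate, the neighbouring nuclei score or both, and with the other alternatives, 72 of the 124 called genes chosen by the naming rule kept their call in all 28. Among them were Fabp7, Plvap, Car14, Mfge8, Kirrel2, Rgs16, Pla2g3, Kcnj10 and Stip1. No gene chosen by that rule changed direction in any alternative that gave it a value. The alternatives reuse libraries by which those genes were chosen, so this is no independent check.

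The difference between genotypes at CT16 was tested against that at CT4, on separate libraries that share 1 estimate of spread. Only 2 of 16910 genes (0.0118%) passed that test, Fabp7 and Pla2g3, while 2557 genes had an unadjusted p under 0.05, and DESeq2 called 360 and limma voom 420. It called 0 genes with the neighbouring nuclei score as covariate and 1 with the replicate number as a block. Fabp7 rose by 1.30 at CT4 and 3.76 at CT16, a difference of 2.46 ± 0.24 (edgeR quasi-likelihood test, adjusted p = 0.00192). Pla2g3 stood at 0.48 at CT4 and rose by 2.28 at CT16, a difference of 1.79 ± 0.27 (adjusted p = 0.0382). Next in order were Nsun7 and Atpif1 (both adjusted p = 0.0511) and Aoc1 and Nr1d1 (both adjusted p = 0.0517). Nr1d1 stood at -0.02 at CT4 and 1.15 at CT16, and Aoc1 at 2.21 and 5.44. Rgs16 stood at -0.29 and 2.39, and Kirrel2 at -0.11 and -2.21, without passing. Mfge8 (-0.92 and -1.12) and Plvap (2.29 and 2.97) had values close to each other at both times.

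**Figure D5:**
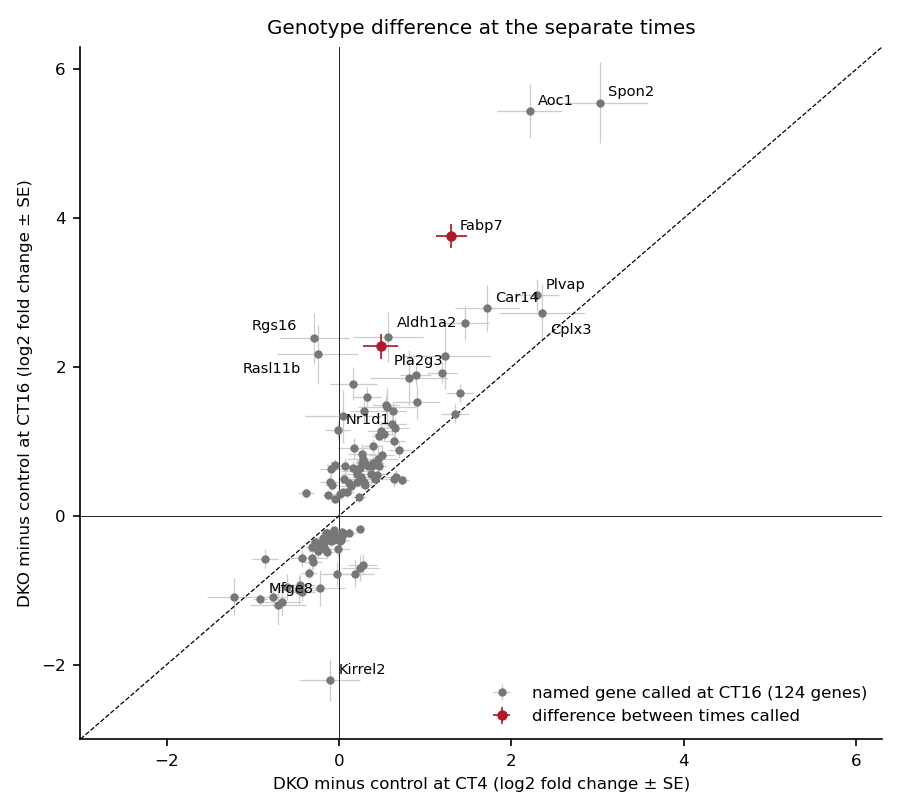
Fitted log2 fold changes (± SE) of the 124 called named genes, at CT4 on the horizontal axis and at CT16 on the vertical axis; the dashed line marks equal values and red marks the 2 genes whose difference between times passed. Most points lie further from 0 on the CT16 axis, by which they were called, and Fabp7 lies at 1.30 and 3.76.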

How the data were processed

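Total RNA of SCN punches was sequenced, and the authors deposited a table of raw counts, which are whole numbers. Per the submitters' processing notes, STAR, featureCounts and DESeq2 were used with the mouse build mm10. Their versions, the annotation and the strand setting were not given in the sources used here. Gene positions are from the deposited table. In R 4.3.3, genes were kept by filterByExpr of edgeR 4.0.16, TMM factors were computed, and 1 model of 4 group means was fitted to 15 libraries (11 residual degrees of freedom) with the robust quasi-likelihood test, Benjamini-Hochberg adjusted over all 16910 genes and called under 0.05. Of the 24419 genes, 3619 had no count. CPM were taken on TMM-adjusted totals, with a prior count of 2 for log2 CPM. A standard error is the size of the log2 fold change over the root of its F statistic.

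Genes named were Nr1d1, Nr1d2, the 12 largest rises and falls defined in the text, up to 4 called members of smallest p per list (2 members where none was called) and the 6 smallest interaction p among called genes; other called list members, Nphs1, Six3, Six6, Shox2, Vip, Avp and Pmch were chosen after their values were seen. A few genes within these rules are left out here. The 57 lists (1825 genes, 1756 tested) and the members were chosen with earlier results of these data known. Alternatives used DESeq2 1.42.0, limma 3.58.1 (voom), RLE and upper quartile factors, 2 other filters, covariates and subsets of libraries. Within groups, library pairs correlated at 0.980 to 0.990 and differed by more than sampling noise (chi-square per degree of freedom 8.66 to 124), so each counted as 1 replicate. Which mice were pooled is not given, and p-values reflect variation among these pools, which may be partly technical.

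On simulated counts (16745 genes) the fit recovered 41 of 67 genes changed by 0.5 log2, 67 of 67 by 1 and 66 of 66 by 2, with 5.95% false calls. Counts were drawn independently for each gene, and only genes above a minimum mean level were changed. No shared shift in tissue content was simulated, so these rates do not measure those of the real libraries, which differ in tissue content. Figures used matplotlib 3.10.9.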

Additional observations from a re-analysis of the deposited data

Results flagged for a closer look

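A single library stood apart from the rest of its group in 20 of 280 groups of CPM values or list sums examined by Dixon's test, where chance alone gives about 1 in 20, or 14 of them. Of the 20, 7 concerned control library 2, 5 DKO library 3 and 3 control library 5.

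DKO library 3 stood nearer to control than the other DKO libraries for Mfge8 (67.8 against 54.3 to 55.4 CPM), Npas2 (45.0 against 72.4 to 74.7), Nfil3 (22.9 against 38.1 to 39.1) and Shank2 (127 against 152 to 155), and it had the most SCN neuropeptide transcripts of the DKO libraries (893 against 590 to 630 summed CPM). DKO library 4 was high for Itga7 (26.9 against 21.9 to 22.5), and DKO library 1 for Gnas (2231 against 1924 to 1950).

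Control library 2 was high for Aldh1a2 (5.68 against 1.95 to 3.01), Hadhb (79.3 against 67.0 to 68.3), summed SCN receptors (1048 against 966 to 988) and summed astrocyte genes (8631 against 7324 to 7510), and low for the folding genes Stip1 (267 against 295 to 306), Calr (386 against 431 to 441) and Fkbp4 (223 against 245 to 253). Control library 5 was high for Crispld2 (4.44 against 2.85 to 2.95), Car9 (3.75 against 3.10 to 3.23) and summed tanycyte and ependyma genes (475 against 290 to 340). Control library 1 was low for Ntn1 (13.9 against 15.6 to 16.3) and Hes6 (15.9 against 17.5 to 17.9), and control library 4 high for Elovl2 (17.3 against 10.9 to 12.1).

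The genotype difference itself differed between CT16 and CT4 for Fabp7, by 2.46 on the log2 scale, and for Pla2g3, by 1.79, each by the interaction test. Neither passed with the neighbouring nuclei score as covariate.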

How the results depend on the processing

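The 154 genes chosen by the naming rule kept their direction in every alternative that gave them a value (27 for Folr1 and S100a9, 28 for the others). As the alternatives reuse libraries by which those genes were chosen, a kept direction is no independent check. The number of calls was not steady. Against 788 called genes, DESeq2 gave 1267, the 9 CT16 libraries alone 368, removal of DKO libraries 3 and 4 gave 428, removal of these and control library 5 gave 375, and leaving out single libraries 380 (without DKO CT16 library 2) to 1318 (without DKO CT16 library 1). Of the 368, 364 were among the 788, as were 332 of the 375. Genes called higher (478) numbered 266, 282 and 264 in the CT16 libraries alone and without those 2 and 3 libraries, and 276 to 674 with single libraries left out. Genes called lower (310) numbered 561 with DESeq2, 515 with limma voom, 102 in the CT16 libraries alone, 146 and 111 without those 2 and 3 libraries, and 104 to 644 with single libraries left out. The interaction, which called 2 genes, gave 360 with DESeq2, 420 with voom, 6 without a filter, 83 with the myelin covariate, 0 with the neighbouring nuclei covariate, 114 and 71 without those 2 and 3 libraries, and 1 to 298 with single libraries left out, the highest without DKO CT16 library 3. The cause of these moves was not tested. Levels near 0.1 CPM rest on few counts.

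The replicate numbers did not pair the libraries: deviations of same-numbered CT16 libraries correlated at -0.05, 0.14, 0.06 and -0.18, and 0 of 4 correlated best with their own number. With the replicate number as a block, 503 genes were called, 454 of them among the 788, of which 155 were lower, and the interaction called 1.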

Other observations

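Of 39 cell cycle inhibitors, cyclins and p53 targets, 3 were higher in DKO at CT16 and none lower, against 2.83% of all tested genes, and 30 had a positive difference (median 0.13). Besides Cdkn1a these were Ccnd2, a G1 cyclin gene, and Bbc3, which encodes the p53 target PUMA. Ccnd2 stood at 19.7, 23.6, 25.2 and 21.2 CPM in DKO libraries 1 to 4 and at 14.7, 13.5, 17.2, 17.2 and 15.5 CPM in control libraries 1 to 5, with a log2 difference of 0.52 ± 0.09 and an adjusted p = 0.00338 by edgeR. Its groups did not overlap. Bbc3 (0.56 ± 0.15) lost its call in 15 of 28 alternatives.

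The remaining tissue lists had few or no called members, where 4.66% of all genes were called. Of 16 tanycyte and ependyma genes Tmem212 was higher (0.56 ± 0.14), a call lost without DKO library 2 or 3 or control library 1 or 3, and of 22 genes of pericytes, smooth muscle and meningeal fibroblasts only Aldh1a2 was, with 15 of the 22 negative (median -0.09). Of 9 genes of oligodendrocyte precursors none passed, and DKO library 4 had the highest sum, as for myelin. Of 5 tested genes of blood cells none passed. Aldh1a2 is thus the 1 gene called among markers of meningeal fibroblasts and mural cells, whose summed CPM overlapped between groups.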
